A study of Mus musculus with 3 samples.

Results

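Interferons are secreted proteins that warn tissue of infection or damage. Type I interferons bind the Ifnar1 and Ifnar2 receptor chains and interferon gamma binds Ifngr1 and Ifngr2. The kinases Jak1, Jak2 and Tyk2 on these chains phosphorylate STAT proteins, which enter the nucleus and switch on a shared set of antiviral, antigen-presenting and regulatory genes, the interferon-stimulated genes. In skin, keratinocytes both make interferons (Ifnk, interferon kappa, is largely a keratinocyte product) and respond to them, as do the immune cells of the stroma.

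The 56 genes described here are receptors, kinases, transcription factors and induced genes of type I and gamma interferon signalling. They were taken by name from the 24028 gene identifiers of the count matrix, and all 56 had a row. RNA sequencing was done on skin papillomas, benign epidermal tumours, of C57BL/6 mice treated with the carcinogen DMBA and the tumour promoter TPA. One library was made for each of 3 genotypes, every library from 3 pooled tumours. Lgals7-/- mice lack galectin-7, a lectin of stratified epithelia. Tg46 mice carry a transgene that expresses galectin-7 from the keratin 14 promoter, which is active in basal keratinocytes. Wild-type mice have only their own galectin-7. The sources used here give no ages.

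With 1 library per genotype no difference has a replicate check, so differences are given as ratios of 2 libraries and not as tests of genotype. Intervals cover counting error alone; without molecular identifiers, several reads may come from 1 molecule. The libraries were shallow, with 312600 counts in Lgals7-/-, 354499 in Tg46 and 172011 in wild-type. Levels are given as CPM, counts scaled to a common library size. A count of 0 allows a level of up to 9.40 CPM in Lgals7-/-, 9.29 in Tg46 and 16.2 in wild-type, the level of 3 counts. Lgals7 held 2, 4 and 0 counts in Lgals7-/-, Tg46 and wild-type, too few to check the genotype labels. Gapdh, which every cell expresses, held 5, 4 and 0 counts in the same order of libraries. Of the 100 genes with the most counts, 73 in Lgals7-/-, 79 in Tg46 and 76 in wild-type shared exon bases with a gene of the opposite strand, against 24.4% of 23709 annotated genes. The sources do not say if strand was used in counting, so reads of such a gene and of its neighbour across cannot be told apart. Tsix held 1185, 1084 and 591 counts in Lgals7-/-, Tg46 and wild-type, and Xist, across from it, 156, 97 and 106. Syn3 held 1608, 878 and 410, and Timp3, across from it, 18, 13 and 15. B2m, with no such overlap, held 2, 1 and 0. Whether counts follow each gene's own transcript was not tested, for genes with or without an overlap. Among the 56 interferon genes 15 (26.8%) had such an overlap, and for 5 of these the gene across has counts of its own. Jak1 lies across from Raver2 by 4 bases, Irf7 from Phrf1 by 45 bases, Ciita from Dexi by 329 bases, and Tap1 and Psmb9 from each other by 212 bases.

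Many induced genes are switched on through the interferon-stimulated response element (ISRE), a promoter motif of the type I response, or through the gamma-activated site (GAS), a motif of the gamma response. Promoter windows from 250 bases before to 50 bases after the start (RefSeq, GRCm38.p6) existed for 41 of the 56 genes. An ISRE core, GAAANNGAAA on either strand, lay in 18 of the 41 (43.9%), against 3.99% of the 27025 genes with a window. A GAS core, TTCNNNGAA, lay in 12 of the 41 (29.3%), against 9.55% of all genes. The 2 motifs were searched separately and matches may overlap. All 5 inducible GTPase genes with a window had an ISRE core, as did 9 of 17 antiviral effectors and 2 of 3 sensing genes. None of the 4 receptor and 3 kinase genes did. A match is a description of the letters and not a site of binding.

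The stretches below come from 3 genes whose counts differed between the libraries, with each ISRE core, found on either strand, in capitals and the gene's own strand read 5′ to 3′. Stat2 (chr10:128270248-128270325, plus strand) was lower than wild-type in both other libraries. Socs1 (chr16:10785564-10785659, minus strand) was higher in Lgals7-/- and holds 2 overlapping cores. Ifit1 (chr19:34640745-34640853, plus strand), added after its values were seen, holds 2 cores between 104 and 76 bases before its start and was lower in Lgals7-/-.
Stat2: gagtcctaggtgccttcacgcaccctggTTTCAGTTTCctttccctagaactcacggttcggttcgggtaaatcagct
Socs1: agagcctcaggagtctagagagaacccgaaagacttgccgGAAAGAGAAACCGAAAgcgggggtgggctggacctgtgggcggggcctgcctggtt
Ifit1: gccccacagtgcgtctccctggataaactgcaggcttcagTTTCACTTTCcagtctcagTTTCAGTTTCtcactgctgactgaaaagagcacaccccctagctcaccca

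Counts per interferon gene were small, as they were for most genes at this depth, where the median over all genes was 7 in Lgals7-/-, 7 in Tg46 and 4 in wild-type. The interferon genes' counts ran from 0 to 48 in Lgals7-/-, with a median of 9, from 0 to 43 in Tg46, with a median of 8, and from 0 to 41 in wild-type, with a median of 7.5. At least 10 counts were reached by 26 of the 56 in Lgals7-/-, 24 in Tg46 and 23 in wild-type. Isg15, a ubiquitin-like modifier and among the most strongly induced interferon targets, held 0 counts in all 3 libraries. Ifitm3, which blocks viral entry, held 2, 1 and 0 counts in Lgals7-/-, Tg46 and wild-type, and Rtp4 held 1, 1 and 0.

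To set these levels beside genes that skin does not use, 1487 chemosensory receptor genes (olfactory, vomeronasal, trace amine and taste receptors) were summed. This set was chosen with earlier results of these data known. Per kilobase of exon it stood at 2.59 CPM in Lgals7-/-, 2.40 in Tg46 and 3.00 in wild-type. What these receptor counts stand for was not tested. The median interferon gene stood at 7.13, 7.72 and 8.84 CPM per kilobase in the same libraries, and the median of all genes with an exon length at 6.99, 6.86 and 5.32. A gene was taken as above the receptor level where the lower end of its exact 95% Poisson interval exceeded it. In Lgals7-/- this held for 32 of the 56 interferon genes (57.1%), against 53.2% of all 23709 genes. In Tg46 it held for 34 (60.7%), against 54.4% of all genes, and in wild-type for 30 (53.6%), against 36.8%. Of the receptor genes themselves, 12.5% passed the same rule in Lgals7-/-, 10.5% in Tg46 and 12.5% in wild-type. These shares depend on depth and are not compared between libraries. Of the interferon genes 20 were above the receptor level in all 3 libraries and 43 in at least 1. Among the 13 that were above it in none were Isg15, Oasl2, Rsad2, Ifi44, Cmpk2 and Psmb9.

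**Figure D1:**
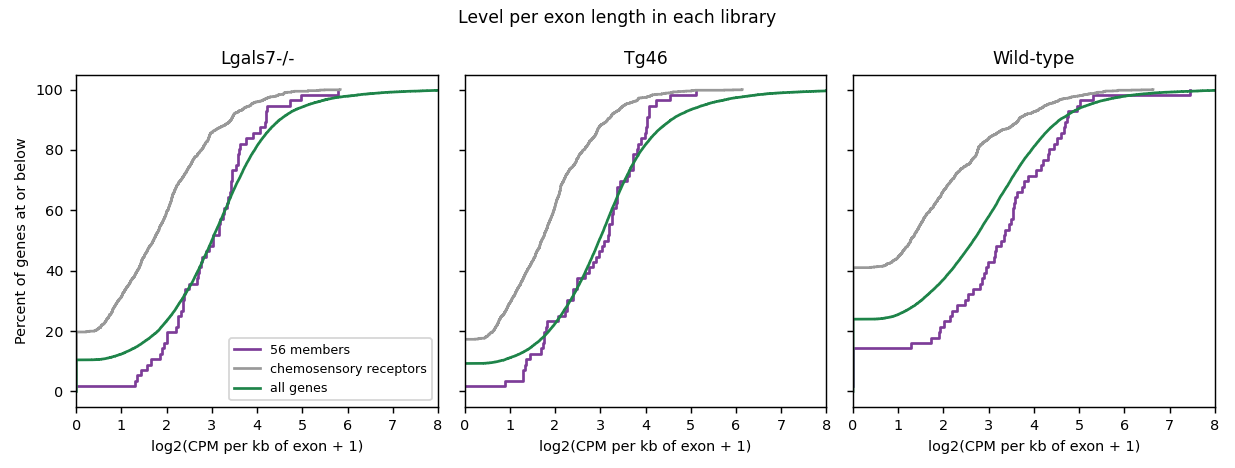
Cumulative share of genes (y axis, percent) at or below a level (x axis, log2 of CPM per kilobase of exon plus 1) in the Lgals7-/-, Tg46 and wild-type libraries, for the 56 interferon genes (purple), the 1487 chemosensory receptors (grey) and all 23709 genes with an exon length (green). The interferon genes lie to the right of the receptors in each panel, near all genes in Lgals7-/- and Tg46 (medians 7.13 against 6.99 and 7.72 against 6.86 CPM per kilobase) and to the right of them in wild-type (8.84 against 5.32).

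Summed over the 56 genes, 579 counts in Lgals7-/-, 623 in Tg46 and 489 in wild-type corresponded to 1814, 1930 and 2644 CPM after TMM scaling, which corrects for library composition. The sum was 0.686 times wild-type in Lgals7-/- (95% interval 0.607 to 0.775) and 0.73 times wild-type in Tg46 (0.647 to 0.823). Both intervals lie below 1. The summed receptor genes were also below wild-type, at 0.862 times (0.823 to 0.904) in Lgals7-/- and 0.802 times (0.765 to 0.841) in Tg46. Their median log2 ratio, with 0.5 counts added, was 0.16 in Lgals7-/- and 0.15 in Tg46, the opposite sign to their sums. The Tg46 sum was 1.06 times the Lgals7-/- sum (0.948 to 1.19), an interval that spans 1, and 0.949 times it when scaled by total counts. Both ratios to wild-type share the single wild-type library, so they are not independent of each other.

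Gene by gene, a ratio was called higher or lower where it was at least 2-fold, with 0.5 counts scaled to library size added, and its exact 95% interval excluded 1. In Lgals7-/- relative to wild-type 14 of the 56 genes were called lower (25%), against 8.72% of the 23082 genes with at least 1 count and 10.2% of the 8351 genes with a summed count of at least 30. Called higher were 3 (5.36%), against 9.61% and 15.2% of the same genes. In Tg46 relative to wild-type 10 were called lower (17.9%), against 8.46% and 10.6%, and 1 higher (1.79%), against 9.58% and 16.8%. In Tg46 relative to Lgals7-/- 3 were called higher (5.36%), against 5.62% and 8.30%, and 2 lower (3.57%), against 4.95% and 6.04%, shares near the background. The median log2 ratio over the 55 genes with a count was -0.26 in both comparisons with wild-type, against 0.20 in Lgals7-/- and 0.30 in Tg46 over all genes with a count. Between Tg46 and Lgals7-/- it was -0.01, as over all genes. Setting genes at 0 in a library to the floor of 3 counts left these 3 medians at -0.26, -0.26 and -0.01.

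**Figure D2:**
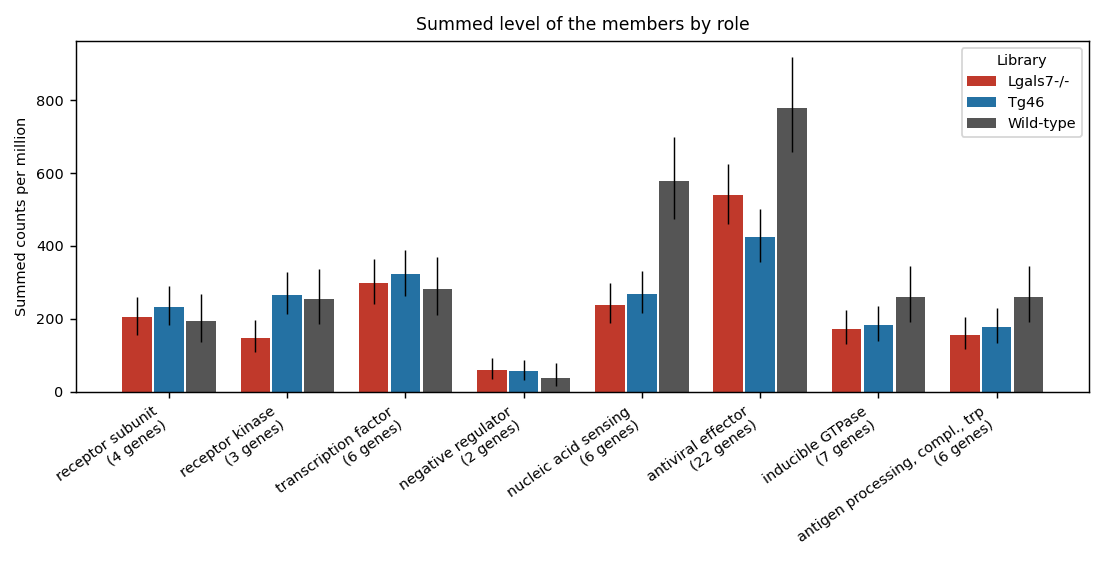
Summed CPM (y axis) of the interferon genes in each of 8 roles, for the Lgals7-/- (red), Tg46 (blue) and wild-type (grey) libraries; bars are single libraries and lines their exact 95% Poisson intervals. The sensing genes (238 CPM in Lgals7-/-, 269 in Tg46, 579 in wild-type) and the antiviral effectors (539, 424 and 779) show the widest gaps to wild-type.

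Among the 4 receptor subunits the summed level in Lgals7-/- was 1.05 times (0.686 to 1.62) and in Tg46 1.19 times (0.792 to 1.83) that of wild-type. Ifnar1 was the member with the most counts of all, with 48 in Lgals7-/-, 43 in Tg46 and 19 in wild-type, and was called in no comparison. Its partner Ifnar2 held 3, 7 and 4 counts in Lgals7-/-, Tg46 and wild-type. The chains of the gamma receptor went opposite ways in Tg46 relative to wild-type. Ifngr1, the ligand-binding chain, held 9 counts in Lgals7-/-, 8 in Tg46 and 13 in wild-type, and was 2.70-fold lower in Tg46 than in wild-type (1.09 to 7.90). Ifngr2, the signalling chain, held 5 counts in Lgals7-/-, 17 in Tg46 and 0 in wild-type. It was 3.25-fold higher in Tg46 than in wild-type, against a floor of 3 counts in wild-type, and its exact interval starts at 2.36. It was 3.15-fold higher in Tg46 than in Lgals7-/- (1.19 to 11.7). This last call was not held in thinned libraries (ratio 2.37), a single random draw of counts to equal totals.

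The 3 receptor kinases summed to 47 counts in Lgals7-/-, 86 in Tg46 and 47 in wild-type, and the Lgals7-/- level was 0.579 times that of wild-type (0.378 to 0.887). Jak1, shared by both receptor types, held 22, 35 and 29 counts in Lgals7-/-, Tg46 and wild-type and was 2.24-fold lower in Lgals7-/- than in wild-type (1.26 to 4.16). Raver2, across from it, held 38, 57 and 4. Tyk2, which serves the type I receptor, held 12 counts in Lgals7-/-, 33 in Tg46 and 10 in wild-type and was 2.65-fold higher in Tg46 than in Lgals7-/- (1.37 to 5.78). Tg46 relative to wild-type was not called for Tyk2, at a ratio of 1.86 (0.91 to 4.30). Jak2, which serves the gamma receptor, held 13, 18 and 8 and was called in no comparison.

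The 6 transcription factors did not move together. Their sum was 1.06 times wild-type in Lgals7-/- (0.747 to 1.51) and 1.15 times in Tg46 (0.814 to 1.63). Stat2, a transcription factor of the type I response, held 12 counts in Lgals7-/-, 18 in Tg46 and 21 in wild-type. It was 2.92-fold lower than wild-type in Lgals7-/- (1.42 to 6.73) and 2-fold lower in Tg46 (1.03 to 4.06). The second sits at the threshold and was not called in thinned libraries (ratio 0.628) or with 5 counts added (0.566). Irf7, which amplifies interferon production, went the other way, with 19 counts in Lgals7-/-, 10 in Tg46 and 1 in wild-type. It was 8.32-fold higher in Lgals7-/- relative to wild-type (1.75 to 457), an interval that a single wild-type count leaves very wide. Phrf1, across from Irf7, held 21, 25 and 7. Irf9, Irf1 (a gamma-induced factor), Irf8 (a factor of myeloid cells) and Ciita (the switch of MHC class II genes) were called in no comparison. Ciita held 34, 35 and 19 counts in Lgals7-/-, Tg46 and wild-type, and Dexi, across from it, 15, 13 and 3. Of the 2 negative regulators, Socs1, which inhibits JAK kinases, held 9 counts in Lgals7-/-, 7 in Tg46 and 0 in wild-type. It was 1.74-fold higher in Lgals7-/- relative to wild-type, against the floor of 3 counts. Socs1 passes the 2-fold rule only through the added count, and its exact interval starts at 1.14. Usp18, which removes ISG15 from proteins and dampens receptor signalling, held 10, 11 and 7 and was not called.

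Among the roles, the 6 genes of nucleic acid sensing were farthest below wild-type by summed level. A separate list of 12 upstream sensing genes, given below, was above wild-type, with most of its counts from Irf5. The 6 genes summed to 76 counts in Lgals7-/-, 87 in Tg46 and 107 in wild-type. That is 0.411 times wild-type in Lgals7-/- (0.303 to 0.557) and 0.466 times in Tg46 (0.347 to 0.624). Ddx58, the viral RNA sensor RIG-I (chromosome 4, 40203773 to 40239828, minus strand, mm10), had the most wild-type counts of the 56 genes. It held 19 counts in Lgals7-/-, 36 in Tg46 and 41 in wild-type and was 3.64-fold lower in Lgals7-/- than in wild-type (2.11 to 6.79), an interval wholly beyond 2-fold. Dhx58, its regulator LGP2, held 6, 13 and 14 counts in Lgals7-/-, Tg46 and wild-type and was 3.74-fold lower in Lgals7-/- than in wild-type (1.45 to 12.8). Trim25, a ubiquitin ligase that acts on RIG-I, held 13, 16 and 18 counts and was 2.33-fold lower in that comparison (1.11 to 5.31), a call not held in thinned libraries (ratio 0.653) or with 5 counts added (0.517). For these genes Tg46 lay between Lgals7-/- and wild-type and was not called against either. Ddx58 fell just short of the fold threshold there, at 1.97-fold lower in Tg46 than in wild-type (1.24 to 3.20). Ifi204 (chromosome 1, 173747293 to 173766943, minus strand), a DNA sensor of the p200 family, had another pattern. It held 16 counts in Lgals7-/-, 1 in Tg46 and 17 in wild-type, so Tg46 alone was low, 18.5-fold below wild-type (4.65 to 1240) and 11.1-fold below Lgals7-/- (2.51 to 679). Ifi204 belongs to a cluster of similar genes, and counting could split reads between copies. Ifih1, the RNA sensor MDA5, held 11, 14 and 12 counts in Lgals7-/-, Tg46 and wild-type, and Zbp1, a sensor of Z-form nucleic acid, 11, 7 and 5, with no call.

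The 22 antiviral effectors summed to 172 counts in Lgals7-/-, 137 in Tg46 and 144 in wild-type, which is 0.692 times wild-type in Lgals7-/- (0.551 to 0.87) and 0.545 times in Tg46 (0.428 to 0.693). In Lgals7-/- relative to wild-type 5 were called lower (22.7%, against 8.72% of all genes with a count) and 1 higher (4.55%, against 9.61%). In Tg46 relative to wild-type 5 were called lower (22.7%, against 8.46%) and 0 higher, against 9.58%. Genes called lower in both were Mx1, Oasl1, Ifi27l2a and Herc6.

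Mx1 encodes an antiviral GTPase that is not functional in C57BL/6 mice. It held 15 counts in Lgals7-/-, 10 in Tg46 and 21 in wild-type and was 2.36-fold lower than wild-type in Lgals7-/- (1.19 to 5.04) and 3.51-fold lower in Tg46 (1.65 to 8.72). Oasl1, which in mice represses translation of Irf7, held 3, 2 and 10 counts and was 4.93-fold lower in Lgals7-/- (1.48 to 32.5) and 6.86-fold lower in Tg46 (1.86 to 81.9). In Lgals7-/- and Tg46 these counts are near the chemosensory receptor level, at which 2.15 and 2.02 counts would fall on Oasl1. Other genes called lower than wild-type were also not above that level in the low library. These were Dhx58, Ifit1, Herc6, Gbp6 and Irgm1 in Lgals7-/- and Ifi204, Ifit2, Herc6 and Gbp6 in Tg46. Ifi27l2a, which encodes a small interferon-induced protein, stood highest of the 56 per kilobase of exon, at 54.1 CPM in Lgals7-/-, 33.4 in Tg46 and 175 in wild-type. From 8, 5 and 15 counts it was 3.07-fold lower than wild-type in Lgals7-/- (1.29 to 8.81) and 4.76-fold lower in Tg46 (1.81 to 18.4). Herc6, the ligase that attaches ISG15 in mice, held 9, 7 and 17 counts and was 3.11-fold (1.37 to 8.30) and 3.97-fold (1.67 to 12.1) lower than wild-type in Lgals7-/- and Tg46. In these 4 genes wild-type was the high library, and none was called in Tg46 relative to Lgals7-/-.

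The IFIT genes, neighbours on chromosome 19 whose proteins bind viral RNA, differed among themselves. Ifit1 held 5 counts in Lgals7-/-, 8 in Tg46 and 12 in wild-type and was 3.79-fold lower in Lgals7-/- than in wild-type (1.36 to 15.0). Ifit2 held 9, 3 and 9 counts, and Tg46 was the low library, 4.50-fold below wild-type (1.31 to 30.1), a call not held in thinned libraries (ratio 0.304). Ifit3 ran the other way, with 17, 9 and 3 counts in Lgals7-/-, Tg46 and wild-type, and was called in no comparison. Mx2 was high in 1 library only, with 20 counts in Lgals7-/-, 2 in Tg46 and 0 in wild-type. Mx2, whose protein is also not functional in laboratory strains, was 3.86-fold higher in Lgals7-/- than the wild-type floor of 3 counts (exact interval from 2.86). It was 8.28-fold lower in Tg46 than in Lgals7-/- (2.46 to 89.3). Among effectors with no call, Oas2 and Oas3, oligoadenylate synthetases that activate RNA decay, held 13 and 18 counts in Lgals7-/-, 19 and 13 in Tg46 and 9 and 9 in wild-type. Eif2ak2, the RNA-activated kinase PKR, held 16, 12 and 10 counts in Lgals7-/-, Tg46 and wild-type. The remaining uncalled effectors held 13 counts or fewer in every library.

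**Figure D3:**
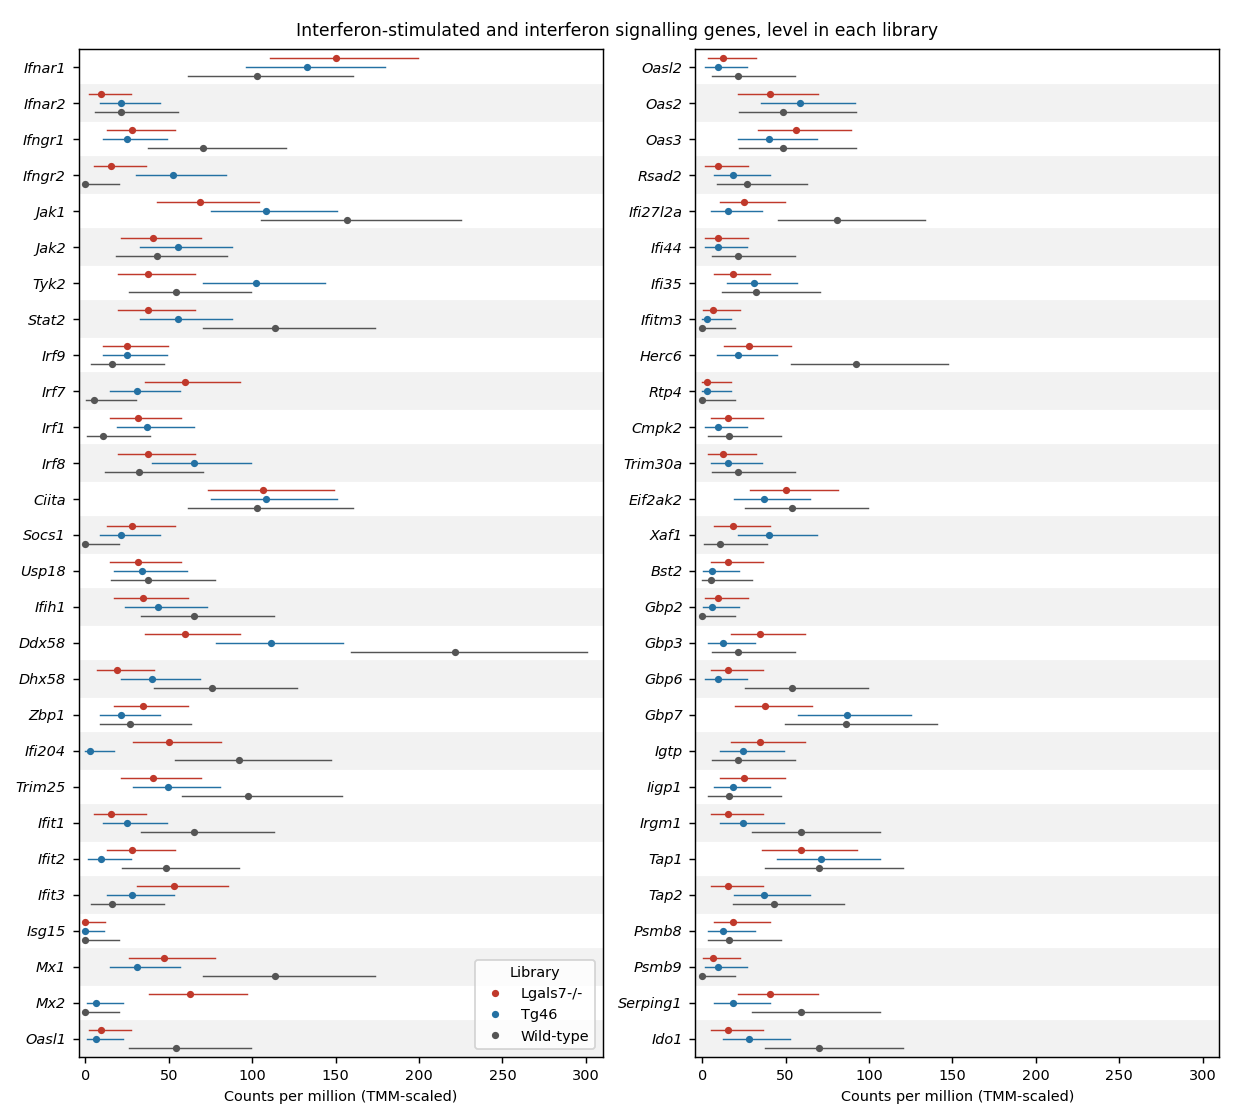
TMM-scaled CPM (x axis) of each of the 56 interferon genes in the Lgals7-/- (red), Tg46 (blue) and wild-type (grey) libraries; points are single libraries and lines exact 95% Poisson intervals, which cover counting error only. Wild-type lies to the right at Ddx58, Mx1, Herc6 and Ifi27l2a, while Lgals7-/- lies to the right at Mx2, which had 20 counts there against 2 in Tg46 and 0 in wild-type.

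The 7 inducible GTPases, which attack vacuoles that hold pathogens, summed to 0.664 times wild-type in Lgals7-/- (0.443 to 0.999) and 0.704 times in Tg46 (0.473 to 1.05). The median log2 ratio in Lgals7-/- was 0.57 with the added count, the opposite sign to the sum, and 0 with genes at 0 set to the floor. Gbp6 held 5 counts in Lgals7-/-, 3 in Tg46 and 10 in wild-type and was 3.18-fold lower than wild-type in Lgals7-/- (1.08 to 12.9) and 4.98-fold lower in Tg46 (1.5 to 32.9). Gbp7 held 12, 28 and 16 counts and was low in Lgals7-/-, 2.24-fold below wild-type (1.02 to 5.33), with Tg46 at 2.25-fold the Lgals7-/- level (1.14 to 4.98). Neither Gbp7 call held in the single random draw of thinned libraries, where the ratios were 0.669 and 1.22, or with 5 counts added. Irgm1, a regulator of the family, held 5, 8 and 11 counts in Lgals7-/-, Tg46 and wild-type and was 3.48-fold lower in Lgals7-/- than in wild-type (1.22 to 13.9). Gbp2, Gbp3, Igtp and Iigp1 had at most 11 counts in any library and were not called. Guanylate-binding protein genes are close copies, so counting could split their reads too. Igtp also shares exon sequence with a model of Irgm2 on its own strand, Gbp6 with Gm43302 and Gbp7 with Gm43802.

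The last 6 genes serve antigen processing, complement control and tryptophan breakdown. They summed to 0.603 times wild-type in Lgals7-/- (0.398 to 0.916) and 0.68 times in Tg46 (0.455 to 1.02). Tap1 and Tap2, which carry peptides to MHC class I, were not called, and Tap1 held 19 counts in Lgals7-/-, 23 in Tg46 and 13 in wild-type. Psmb8 and Psmb9, immunoproteasome subunits, held 6 counts or fewer in every library. Ido1, which degrades tryptophan, held 5 counts in Lgals7-/-, 9 in Tg46 and 13 in wild-type and was 4.10-fold lower in Lgals7-/- than in wild-type (1.5 to 16.1). Serping1, the complement C1 inhibitor, held 13, 6 and 11 counts, and it was Tg46 that was low, 2.99-fold below wild-type (1.09 to 10.5). The ratio of 0.334 moved to 0.0469 in thinned libraries, where Serping1 kept no count in Tg46, so that value rests on the added count. Tg46 relative to Lgals7-/- was not called (0.476, 0.142 to 1.29).

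**Figure D4:**
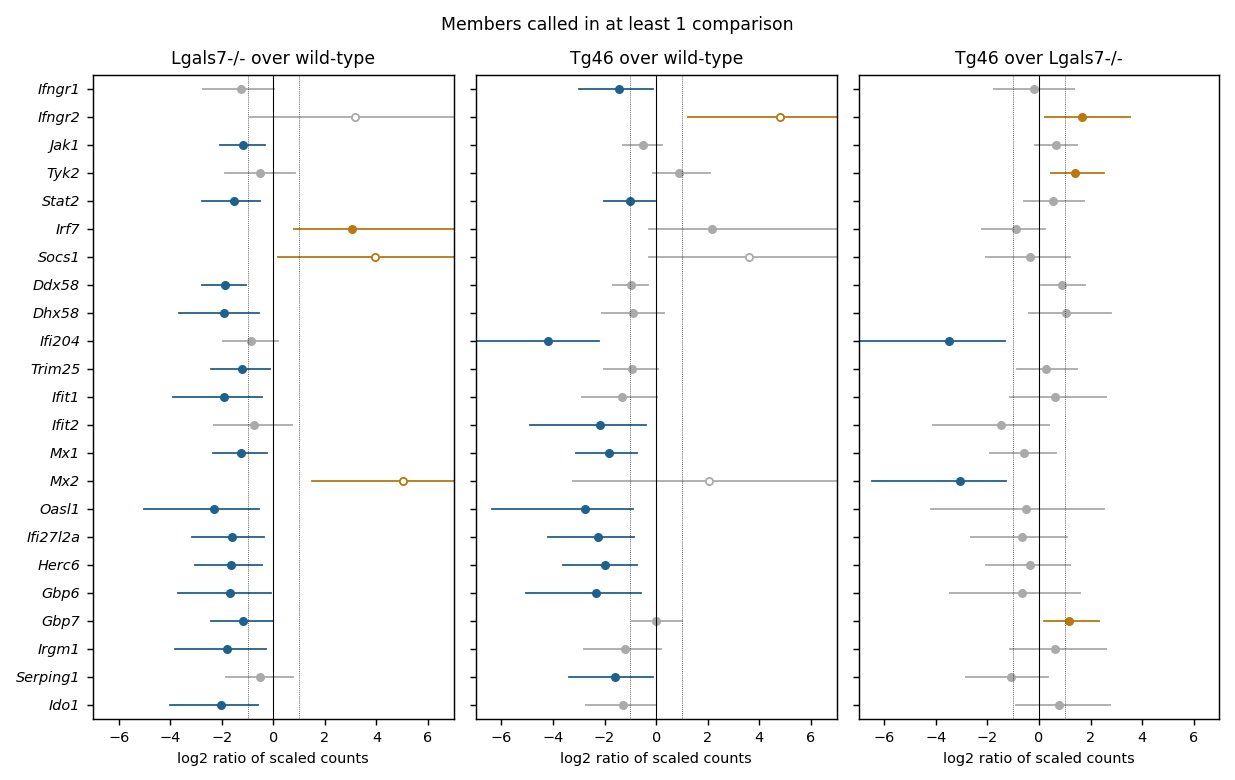
Log2 ratio of scaled counts (x axis) for the 23 interferon genes called in at least 1 comparison, with panels for the ratios of Lgals7-/- to wild-type, of Tg46 to wild-type and of Tg46 to Lgals7-/-; lines are exact 95% intervals of the pair of counts, drawn up to the plot's edge, dotted lines mark 2-fold, and blue, orange and grey mark genes called lower, higher and neither. Open points have 0 counts in 1 library, so their position depends on the added count. Most coloured points in the comparisons with wild-type lie to the left (14 lower and 3 higher, 10 lower and 1 higher), whereas Tg46 over Lgals7-/- has 3 higher and 2 lower.

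Other genes of the pathway, listed with earlier results of these data known, did not share one direction. The 64 other interferon-induced genes summed to 0.925 times wild-type in Lgals7-/- (0.814 to 1.05) and 0.948 times in Tg46 (0.835 to 1.08), with both intervals spanning 1. In Lgals7-/- 10 were called lower than wild-type (15.6%, against 8.72% of all genes with a count) and 3 higher (4.69%, against 9.61%). In Tg46 7 were called lower (10.9%, against 8.46%, near the background) and 4 higher (6.25%, against 9.58%). By the ratio with the added count, which ranks genes at 0 high, Gbp8 came first in Lgals7-/-, with 0 counts against 8 in wild-type. It was 4.60-fold lower against the floor of 3 counts, and its exact interval starts at 2.95. Lgals9, the gene of galectin-9, came next, with 1 against 17 (18.4-fold lower, 4.60 to 1226). Oas1a followed, with 0 against 5 (2.88-fold lower against the floor, exact interval from 1.58). Gbp8 shares exon sequence with models of Gbp4 and Gbp9. In Tg46 the first 3 were Ifit1bl1, with 1 count against 10 in wild-type (11.1-fold lower, 2.48 to 758), Oas1c, with 2 against 12 (8.19-fold lower, 2.33 to 96.4), and Ifi205, with 1 against 6 (6.79-fold lower, 1.27 to 482). In Tg46 relative to Lgals7-/- 5 of the 64 were called higher (7.81%, against 5.62% of all genes with a count). Called lower were 2 (3.12%, against 4.95%), and both shares are near the background. By the same ratio the first 3 of those called were Gbp8, Slfn8 and Oas1c. Gbp8 held 11 counts in Tg46 against 0 in Lgals7-/-, 3.63-fold higher against the floor of 3 counts (exact interval from 2.48). Slfn8 held 8 against 1 (5.62-fold higher, 1.06 to 351) and Oas1c 2 against 13 (5.45-fold lower, 1.49 to 60.0). Tapbp, the MHC class I chaperone tapasin, was picked outside the rule with its values already known. It was higher than wild-type in both, with 50 counts in Lgals7-/-, 54 in Tg46 and 6 in wild-type.

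The 21 interferon genes proper were near the limit of detection, with 49 counts in Lgals7-/-, 53 in Tg46 and 13 in wild-type in all. Their summed level was 2.18 times wild-type in Lgals7-/- (1.17 to 4.39) and 2.34 times in Tg46 (1.26 to 4.67), but no single gene was called. Ifnk held the most, with 14, 15 and 6 counts in Lgals7-/-, Tg46 and wild-type, whereas Ifnb1 held 1, 0 and 0 and Ifng 0, 1 and 0. Of 7 further JAK-STAT regulators, 3 phosphatase genes were called higher than wild-type in both libraries. These were 42.9% of the list, against 9.61% of all genes with a count in Lgals7-/- and 9.58% in Tg46. The 7 genes summed to 3.13 times wild-type in Lgals7-/- (2.03 to 5.01) and 3.21 times in Tg46 (2.09 to 5.13). Ptpn2, which dephosphorylates JAK and STAT proteins, held 36 counts in Lgals7-/-, 42 in Tg46 and 1 in wild-type. Ptpn1 held 16, 18 and 0 and Ptpn6 20, 18 and 2. The 12 upstream sensing genes held 238 counts in Lgals7-/-, 364 in Tg46 and 96 in wild-type. Their sum was 1.44 times wild-type in Lgals7-/- (1.13 to 1.84) and 2.17 times in Tg46 (1.73 to 2.75). Irf5 alone held 126, 264 and 53 of these counts in Lgals7-/-, Tg46 and wild-type, most of each sum. In each comparison 1 was called higher (8.33%, near the share of all genes) and 0 lower. Cgas, the cytosolic DNA sensor, was 2.70-fold higher in Lgals7-/- than the wild-type floor of 3 counts, with 14 counts against 0. Its exact interval starts at 1.92. Irf5 was 2.84-fold higher in Tg46 than in wild-type (2.12 to 3.91), with 126 counts in Lgals7-/-, 264 in Tg46 and 53 in wild-type, and has exons across from those of Tnpo3.

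In bulk tissue, fewer cells of a type and less RNA per cell cannot be told apart, so cell type markers are given beside these values. Over all genes with a count 9.61% were called higher and 8.72% lower in Lgals7-/- relative to wild-type, and 9.58% and 8.46% in Tg46. Among genes with a summed count of at least 30, 15.2% were called higher in Lgals7-/- and 16.8% in Tg46. A single call in a list this short is not set apart from these shares. Of 8 keratinocyte markers 5 (62.5%) were called higher and 0 lower than wild-type in Lgals7-/-, and likewise in Tg46. Their sum was 1410 CPM in Lgals7-/-, 1564 in Tg46 and 660 in wild-type, and none of the 8 was at 0. They were above the receptor level at 8 genes in Lgals7-/-, 8 in Tg46 and 7 in wild-type. The 4 pan-leukocyte markers summed to 141 CPM in Lgals7-/-, 127 in Tg46 and 173 in wild-type, with none at 0, and 0 of 4 were called in Lgals7-/- and 1 of 4, Coro1a, lower in Tg46. The 10 macrophage and monocyte markers summed to 379, 285 and 303 CPM in Lgals7-/-, Tg46 and wild-type. Of these 1 was called higher in Lgals7-/- and none in Tg46 relative to wild-type, and Ly6c2 was at 0 in Tg46. The 7 dendritic cell markers summed to 260, 294 and 205 CPM, with Cd209a and Batf3 at 0 in wild-type, and 2 were called higher in Lgals7-/- and 1 in Tg46. The 6 plasmacytoid dendritic cell markers summed to 263, 310 and 270 CPM and had no call against wild-type, with Ly6d and Klk1 at 0 in Lgals7-/- and these and Cox6a2 at 0 in wild-type. The 7 NK and cytotoxic markers summed to 132, 52.7 and 114 CPM, with Gzma at 0 in Tg46 and Gzmb at 0 in wild-type, and 1 was called higher and 1 lower in Lgals7-/- and 1 lower in Tg46. The 7 T cell markers summed to 222, 177 and 135 CPM, with Cd3g at 0 in Lgals7-/-, Cd2 at 0 in Tg46 and wild-type and Cd4 at 0 in wild-type, and Cd4 was called higher in both. The 4 B cell markers summed to 53.3, 124 and 114 CPM in Lgals7-/-, Tg46 and wild-type, or 0.469 times wild-type in Lgals7-/- (0.232 to 0.933). Ms4a1 was at 0 in Lgals7-/- and Cd79b in wild-type, and 2 of the 4, Ms4a1 and Cd79a, were called lower in Lgals7-/- and 1, Ms4a1, in Tg46. Of the 2 Langerhans cell markers, which summed to 65.8, 46.5 and 70.3 CPM, Cd207 was called lower in Tg46. The 5 endothelial markers summed to 194, 208 and 227 CPM, with Emcn called lower in both. The 4 neutrophil markers summed to 84.6, 43.4 and 21.6 CPM, with S100a8 and Cxcr2 at 0 in Tg46 and S100a8 and Csf3r at 0 in wild-type, and Csf3r was called higher in both. The 6 fibroblast markers summed to 414, 452 and 341 CPM, with Lum at 0 in wild-type, and Pdgfra was called higher in both. Keratinocyte sums were 2.14 times wild-type in Lgals7-/- (1.75 to 2.63) and 2.37 times in Tg46 (1.94 to 2.91). In Lgals7-/- T cell sums were 1.65 times wild-type (1.03 to 2.71) and neutrophil sums 3.91 times (1.36 to 15.4). In Tg46 NK and cytotoxic sums were 0.464 times wild-type (0.230 to 0.923). Apart from B cells in Lgals7-/-, the other marker sums had intervals against wild-type that spanned 1. The part of cell composition in the interferon gene ratios was not tested.

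The calls were also counted by promoter letters. Of the 18 genes with an ISRE core 5 were called lower and 1 higher in Lgals7-/- relative to wild-type, and of the 23 without one 4 were lower and 1 higher. In Tg46 relative to wild-type 1 of 18 with an ISRE core and 4 of 23 without one were lower. Of the 12 genes with a GAS core 1 was called lower in Lgals7-/- relative to wild-type and 1 in Tg46, against 8 and 4 of the 29 without one. Over all genes with a count 8.72% were called lower and 9.61% higher in Lgals7-/- relative to wild-type, and 8.46% and 9.58% in Tg46. The counts by promoter letters are small, were not tested and are not read as a difference from these shares.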

How the data were processed

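RNA of skin papillomas from Lgals7-/-, Tg46 and wild-type mice was analysed from 3 libraries, 1 per genotype. The authors deposited unnormalized integer counts of reads for each Entrez gene. Per the labels' protocols, RNA of 3 pooled tumours per genotype was purified with TRIzol and RNeasy columns and made into libraries with an Illumina kit. The build is mm10 per the submitters' processing notes. Aligner, counting tool and strand setting: not given in the sources used here.

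Symbols came from RefSeq (23968 of 24028 identifiers matched, GRCm38.p6) and exon lengths, positions and overlaps from GENCODE vM21 on GRCm38, the same assembly as mm10. Library sizes were multiplied by TMM factors of 1.02 in Lgals7-/-, 0.911 in Tg46 and 1.08 in wild-type (edgeR 4.0.16, R 4.3.3). Ratios had 0.5 counts scaled to library size added. Their 95% intervals are exact Clopper-Pearson intervals of the pair of counts. Library totals, 172011 to 354499, set the precision. No filter on low counts was used, because 39 of the 56 genes reach 10 counts in at least 1 library and some only where they are high. Calls were made genome-wide in the same way. No test across libraries is possible, so no p-values are given. A fold against a library at 0 takes 3 counts as that library's floor. It does not cover counting error in the other library, and the exact interval can start lower. The script for ratios and intervals was tested on simulated data. The members, lists and rules were chosen with earlier results of these data known. By rule, all 56 may be named, with counts for each called member and for the 2 highest in a role, and up to 3 called members of each other list. Alternatives were scaling by total counts, by upper quartiles or by DESeq2 1.42.0, filters on counts and other added counts. Further ones were other call rules, genes without opposite-strand exons and libraries thinned to equal totals. The thinning was a single random draw. Python 3.11.15, numpy 2.4.6, scipy 1.17.1, pandas 2.3.3 and matplotlib 3.10.9 were used.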

Additional observations from a re-analysis of the deposited data

How the results depend on the processing

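No paired analysis was possible because 1 library stands for every genotype. The called genes gave 198 ratios under alternatives, of which 197 were inside the reported interval, 1 was outside with the same sign and 0 reversed, and 12 were no longer called, 6 with 5 counts added (Jak1, Trim25, Mx1 and Gbp7 in Lgals7-/- and Stat2 in Tg46 over wild-type, Gbp7 in Tg46 over Lgals7-/-) and 6 in thinned libraries (Trim25 and Gbp7, Stat2 and Ifit2, and Ifngr2 and Gbp7 in the same 3 comparisons). The ratio outside was that of Serping1 in Tg46 over wild-type, 0.0469, from thinned libraries. That ratio and those of Oasl1 below had no count left in the low library and rest on the added count. The thinning was a single random draw, so its ratios and calls also carry the noise of that draw. Thinning also took Dhx58 to 0.108, Oasl1 to 0.0488 and Gbp6 to 0.149 in Lgals7-/- over wild-type, Ifi204 to 0.0982, Oasl1 to 0.0514 and Ifi27l2a to 0.111 in Tg46 over wild-type, and Ifi204 to 0.157 in Tg46 over Lgals7-/-, all still called lower. The median log2 ratio ranged over -0.687 to -0.184 in Lgals7-/- over wild-type, -0.521 to -0.163 in Tg46 over wild-type and -0.175 to 0.263, on both sides of 0, in Tg46 over Lgals7-/-. The shares over all genes given above are for the main call rule and scaling only. Counts called under other rules, other scalings or thinning have no such share beside them and are not read as results about the interferon genes. In Lgals7-/- over wild-type, counts of genes called higher were 11 by fold alone (19 lower), and 1 both with intervals wholly beyond 2-fold and over the 22 genes with 30 summed counts, which tests fewer genes. Counts called lower there were 8 over those 22 genes and 1 with intervals beyond 2-fold. In Tg46 over wild-type, 10 were higher by fold alone (15 lower) and 0 over the 22 genes, and 6 were lower over the 22 genes and 1 with intervals beyond 2-fold. In Tg46 over Lgals7-/-, fold alone gave 7 higher and 6 lower and intervals beyond 2-fold 0 higher, while 1 was lower over the 22 genes and 4 in thinned libraries, where the cause was not tested. Total counts as scaling, which shift the median of all genes by -0.227 (log2) in Tg46 over wild-type, and by -0.132 in Tg46 over Lgals7-/-, put the summed ratio at 0.618 in the first, with 15 called lower, and at 0.949 in the second. DESeq2 size factors gave 14 called lower in Tg46 over wild-type. Depth limits every call: a median of 9 counts or fewer per gene leaves wide intervals, and a gene not called is not shown to be alike.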
